A study of Mus musculus with 4 samples.

Results

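The 4 genes Hopx, Crhbp, Ceacam10 and Eif5b were taken from the comparison of Hsf4 knockout with wild-type newborn mouse lens, as genes whose RNA differed between the groups. Every probe set whose platform annotation names only one of them was included, which gave 9 probe sets of 45037, for 4 genes of 18193. Of the 9 probe sets, 8 passed a filter on dim values. The genes were chosen by their difference between the groups, and the question was whether the probe sets of each agree on all 4 arrays. That difference is therefore described for these genes and not tested, and the percentages given for all probe sets are background only.

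The lenses were taken at postnatal day 0.5 from mice of the 129S3 background, all labelled male. One group was wild type and the other lacked Hsf4, which encodes heat shock transcription factor 4, and there was 1 Affymetrix array for each of 2 samples a group, numbered 1 and 2. The labels do not say how the knockout allele was made, whether lenses of several animals were pooled, or whether the samples came from separate animals. Levels are intensities after quantile normalization, which gives all arrays the same distribution. Differences are log2(intensity + 16), arrays labelled knockout minus arrays labelled wild type, and the offset of 16 shrinks the differences of dim probe sets.

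The arrays differed in brightness and 1 array stood apart. The median deposited intensity was 21.4 and 10.5 on wild-type arrays 1 and 2, and 18.5 and 6.58 on knockout arrays 1 and 2. The correlation of log2 values over probe sets was 0.94 to 0.95 for pairs with knockout array 2 and 0.96 to 0.98 for the others. It was 0.978 between the number 1 arrays and 0.950 between the number 2 arrays. Between arrays of one label it was 0.964 for wild type and 0.942 for knockout. The single probe set of Hsf4 measured 505 and 138 on wild-type arrays 1 and 2, and 1212 and 413 on the arrays labelled knockout. It was thus brighter under the label knockout, and no source used here places it relative to the deleted part, so it does not check the labels, and all directions below follow the labels. Xist, the RNA of X inactivation in females, measured 605 and 58.0 on wild-type arrays 1 and 2 and 260 and 9.01 on the knockout arrays, against the label male for all samples. The Y-linked Eif2s3y measured 60.4 and 208 on the wild-type arrays and 101 and 161 on the knockout arrays, and 0 of the 4 measured genes of that list passed the test. The 10 of 11 lens fibre markers that were measured had a summed intensity of 41837 to 44385, to which the crystallins Cryaa and Cryba1 gave 8512 and 9184 on wild-type array 1. Cryba1 measured 9184 on both number 1 arrays and 9805 on both number 2 arrays. Quantile normalization gives the brightest probe sets of every array the same set of values. The narrow range of this sum is therefore largely set by the scaling and does not compare lens content.

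Hopx, Crhbp, Ceacam10 and Eif5b belong to unrelated systems. Hopx is a small homeodomain protein that does not bind DNA itself. It acts as a cofactor, restraining serum response factor and recruiting histone deacetylases, and is known from heart, muscle and epithelial stem cells. Crhbp is a secreted protein that binds corticotropin-releasing hormone and urocortin and keeps them from their receptors. Ceacam10 is a mouse member of the carcinoembryonic antigen-related family of immunoglobulin-like proteins. Eif5b is the GTPase that joins the ribosomal subunits at the last step of translation initiation.

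Heat shock factors bind DNA at repeated, inverted GAA units, so the sequence before each start site was searched for pairs of them. RefSeq start sites of build GRCm38.p6 were found for all 4 genes, and the 250 bases before each are given 5′ to 3′ on the strand of the gene, with TTCNNGAA or GAANNTTC in capitals. Each pair reads the same on both strands. The 2 higher genes come first and the 2 lower genes after them.
Hopx, chr5:77095268-77095517, minus strand: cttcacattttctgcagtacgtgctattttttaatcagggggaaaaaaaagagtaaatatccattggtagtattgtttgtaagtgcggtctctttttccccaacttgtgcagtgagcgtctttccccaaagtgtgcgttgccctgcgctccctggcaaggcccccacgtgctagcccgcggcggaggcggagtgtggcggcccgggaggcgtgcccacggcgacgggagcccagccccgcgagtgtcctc
Hopx, chr5:77115124-77115373, minus strand: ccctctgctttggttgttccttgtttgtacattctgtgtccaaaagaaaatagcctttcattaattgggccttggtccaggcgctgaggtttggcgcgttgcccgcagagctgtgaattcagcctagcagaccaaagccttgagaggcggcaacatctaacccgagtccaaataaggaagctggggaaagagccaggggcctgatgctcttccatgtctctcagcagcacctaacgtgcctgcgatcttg
Crhbp, chr13:95444832-95445081, minus strand: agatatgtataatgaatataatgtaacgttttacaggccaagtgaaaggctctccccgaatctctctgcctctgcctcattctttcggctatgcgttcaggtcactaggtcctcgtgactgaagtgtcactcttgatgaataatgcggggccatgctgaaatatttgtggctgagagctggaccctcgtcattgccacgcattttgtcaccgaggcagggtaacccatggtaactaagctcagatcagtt
Ceacam10, chr7:24776917-24777166, plus strand: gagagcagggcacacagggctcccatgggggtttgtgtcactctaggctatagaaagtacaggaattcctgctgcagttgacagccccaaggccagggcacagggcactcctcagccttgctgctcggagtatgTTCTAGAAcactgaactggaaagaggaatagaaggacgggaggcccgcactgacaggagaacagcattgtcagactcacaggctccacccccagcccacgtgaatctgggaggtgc
Eif5b, chr1:37997760-37998009, plus strand: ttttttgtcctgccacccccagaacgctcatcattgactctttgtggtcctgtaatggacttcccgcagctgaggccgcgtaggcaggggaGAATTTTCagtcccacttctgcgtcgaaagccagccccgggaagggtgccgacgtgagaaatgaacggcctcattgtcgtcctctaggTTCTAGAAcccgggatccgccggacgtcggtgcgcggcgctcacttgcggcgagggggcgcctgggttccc

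Both genes that were lower on the knockout arrays carry the letters TTCTAGAA, and neither higher gene has a pair of either kind in these windows. In Eif5b the first base of TTCTAGAA lies 71 bases before the start, with a GAATTTTC beginning 159 bases before it. In Ceacam10 it lies 116 bases before the start shown, and 153 before a second start site that is downstream of it. TTCTAGAA occurs in 305 of 32851 windows of the same length (0.928%), while TTCNNGAA occurs in 7.17% and GAANNTTC in 6.69%. A run of 3 units, TTCNNGAANNTTC or GAANNTTCNNGAA, counted together on both strands, occurs in 0.466% and in none of these windows. Of 69 genes above the filter with TTCTAGAA, 3 were lower by a log2 of 1 or more, namely Ceacam10, Eif5b and Ccn1, and 0 were higher by as much. Without Ceacam10 and Eif5b this was 1 of 67 genes (1.49%), against 0.798% of 9401 genes with a window in the table. The exact letters TTCTAGAA were chosen after the sequences were seen, and a match does not show a bound site.

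Hopx was brighter on both arrays labelled knockout, in both of its probe sets. The brighter probe set, 1428662_a_at, measured 1028 and 990 on wild-type arrays 1 and 2 and 3358 and 2225 on knockout arrays 1 and 2. The wild-type arrays lay close together and the knockout arrays were higher by 3.27-fold within number 1 and 2.25-fold within number 2. Probe set 1451776_s_at measured 225 and 311 on the wild-type arrays and 612 and 561 on the knockout arrays, 2.72-fold and 1.80-fold higher within the numbers. Its suffix marks a probe set that can match transcripts of more than one gene. The log2 difference was 1.42 for the brighter probe set, from 1009 ± 26.8 in wild type to 2792 ± 801 in knockout (SD, n = 2), and 1.10 for the other, from 268 ± 60.7 to 586 ± 36.3. In a sample of whole tissue, a change in the number of cells that hold an RNA and a change in its amount per cell cannot be told apart.

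Crhbp has 1 probe set, 1436127_at, and so no second measurement. It measured 103 and 120 on wild-type arrays 1 and 2 and 236 and 416 on the knockout arrays. Every knockout value lay above both wild-type values, by 2.30-fold within number 1 and 3.47-fold within number 2. The log2 difference was 1.38, from 111 ± 12.2 to 326 ± 128. The knockout array with the larger rise was number 2 for Crhbp and number 1 for Hopx.

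Ceacam10 was dimmer on both arrays labelled knockout in the 2 of its 3 probe sets that passed the filter. Probe set 1417074_at measured 112 and 129 on wild-type arrays 1 and 2, and 5.41 and 66.1 on knockout arrays 1 and 2. Probe set 1448573_a_at measured 74.8 and 108 on the wild-type arrays, and 0.25 and 41.7 on the knockout arrays. On knockout array 1 both lay below 13.0, the intensity of the filter, so no fold is given there, while on knockout array 2 they were 1.96-fold and 2.59-fold below wild-type array 2. These probe sets passed the filter through the other arrays. The log2 differences were -1.70, from 121 ± 12.4 to 35.7 ± 42.9, and -1.79, from 91.4 ± 23.6 to 21.0 ± 29.3, and in both the SD in knockout exceeded the mean. Their size rests on the offset, since that of 1417074_at was -2.55 with an offset of 1 and -0.96 with an offset of 64. Without knockout array 1, the array below the filter, it was -0.73, and without knockout array 2 it was -2.67. The third probe set, 1436565_at, measured 0.62, 0.86, 3.66 and 4.51 on wild-type 1, knockout 1, wild-type 2 and knockout 2, which is too dim to bear on the gene. The 2 brighter probe sets were designed on the same transcript record and are not independent samples of the RNA.

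Eif5b was dimmer on both arrays labelled knockout in all 3 of its probe sets. Probe set 1434604_at measured 1129 and 1191 on wild-type arrays 1 and 2 and 210 and 490 on the knockout arrays. Probe set 1434605_at, designed on the same record, measured 738 and 909 on the wild-type arrays and 144 and 531 on the knockout arrays. Probe set 1435592_at, designed on another record, measured 294 and 457 on the wild-type arrays and 29.2 and 190 on the knockout arrays. In each the lowest wild-type value exceeded the highest knockout value. Within number 1 the 3 probe sets were 5.36-fold, 5.14-fold and 10.0-fold lower, and within number 2 they were 2.43-fold, 1.71-fold and 2.41-fold lower. The log2 differences were -1.80 (1160 ± 44.3 to 350 ± 198), -1.50 (824 ± 121 to 337 ± 274) and -1.99 (375 ± 116 to 110 ± 114).

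**Figure D1:**
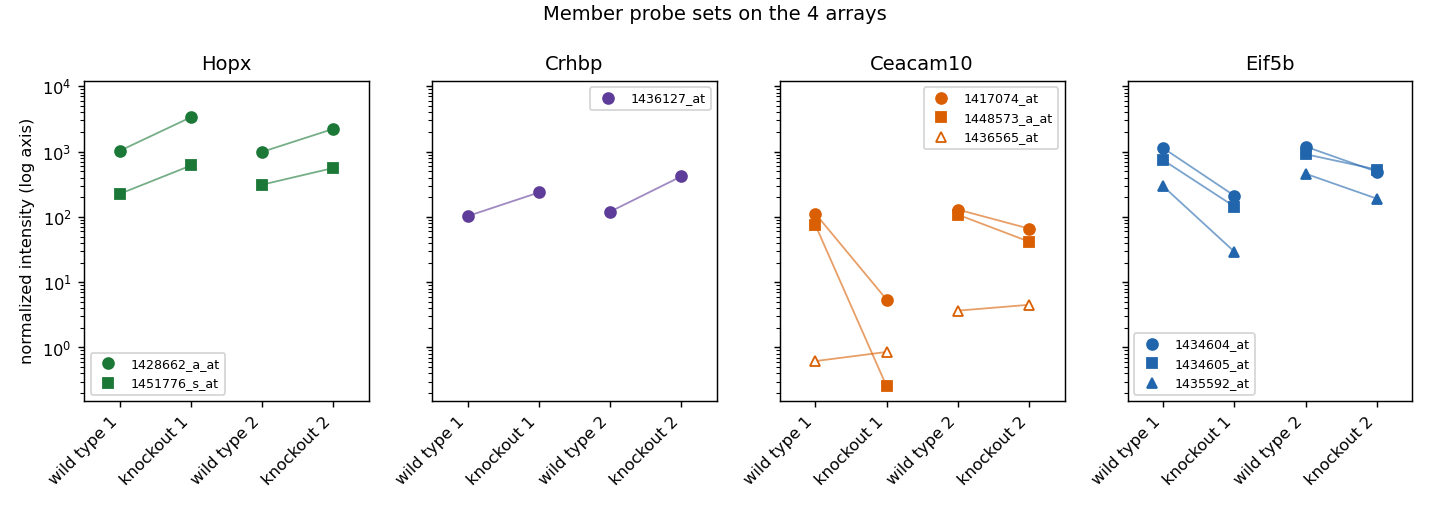
Normalized intensity (log axis) of each probe set of Hopx, Crhbp, Ceacam10 and Eif5b on the 4 arrays, with a line joining the arrays of one number and an open symbol for the probe set below the filter. Hopx and Crhbp were higher on both knockout arrays, while the 5 filtered probe sets of Ceacam10 and Eif5b were lower on both, most so on knockout array 1.

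Among the 8 probe sets above the filter, groups did not overlap in 3 that were higher and 5 that were lower. Groups did not overlap in the higher direction for 12.6% of all 22519 probe sets above the filter and in the lower direction for 14.4%. Values were higher within both numbers for 25.9% and lower for 27.4%, against 3 and 5 of these 8. Separation alone was therefore common on these 4 arrays, and since the genes were chosen for this contrast, the count is a description. Separation with a log2 difference of 1 or more was rarer, at 0.333% higher and 0.555% lower.

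The probe sets of one gene gave the same direction in each of the 3 genes with several above the filter, but not the same size. The log2 differences of the 2 of Hopx lay 0.33 apart, where the median over 3110 genes with 2 filtered probe sets was 0.25. Those of the 3 of Eif5b lay 0.49 apart, where the median over 1311 genes with 3 was 0.42. Those of the 2 of Ceacam10 lay 0.09 apart with the offset of 16 and 1.09 apart with an offset of 1, because on knockout array 1 the offset outweighs the values of 5.41 and 0.25. How closely the Ceacam10 probe sets agree in size is therefore not measured on these arrays. With the offset of 16, all filtered probe sets separated the groups with a log2 difference of at least 1 in 3 genes that were higher (0.0578% of 5193 with 2 or more) and 8 that were lower (0.154%). The higher ones were Hopx, Syn2 and Wdr41. The lower ones were Ceacam10, Eif5b, the collagen genes Col1a2, Col3a1 and Col5a2, the small heat shock protein Hspb1, the serine protease Prss23 and Ttn, the giant protein of the sarcomere.

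The array numbers gave different sizes of difference. For Hopx the log2 difference was 1.69 within number 1 and 1.16 within number 2 in the brighter probe set, and 1.38 and 0.82 in the other. For Crhbp it was 1.09 and 1.67. For Eif5b it was -2.34 and -1.25, -2.24 and -0.76, and -2.77 and -1.20. The numbers thus differed by 1.08 to 1.57 on the log2 scale in Eif5b and by 0.54 to 0.58 in Hopx and Crhbp, where the median absolute gap over all filtered probe sets was 0.36. For Ceacam10 the difference within number 2 was -0.82 in 1417074_at and -1.10 in 1448573_a_at. Within number 1 the knockout values lay below the filter, so the offset sets the size there and no gap is given.

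**Figure D2:**
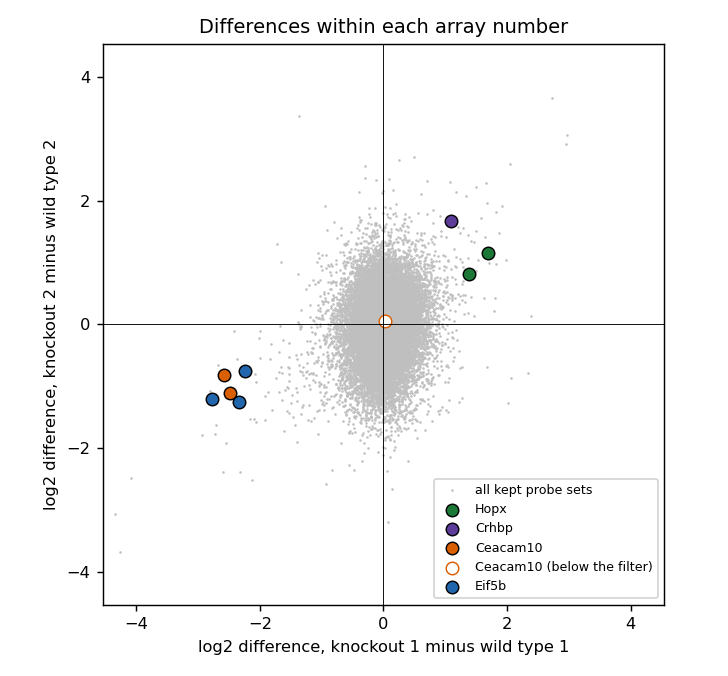
Log2 difference, knockout minus wild type, within number 1 (horizontal) and within number 2 (vertical) for the 22519 probe sets above the filter (grey) and for the 9 probe sets of the 4 genes (coloured; open, below the filter). Probe sets of Hopx and Crhbp lie at the upper right, and the 5 filled symbols of Ceacam10 and Eif5b at the lower left with larger differences within number 1 than within number 2, while the open symbol of Ceacam10 lies near 0 on both axes; the offset sets the horizontal position of the filled Ceacam10 symbols.

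The sizes depended on how the arrays were scaled. With the values as deposited, the median of all filtered probe sets was -0.42, and -0.68 within number 2, so differences are also given relative to it. Hopx then had 0.84 in its brighter probe set, or 1.26 relative to the median, and Crhbp had 0.80, or 1.22. Probe set 1451776_s_at of Hopx turned within number 2, from 232 on wild-type array 2 to 194 on knockout array 2 (log2 -0.24, or 0.44 relative to the median), and it had -0.01 there with median centring. Probe set 1434604_at of Eif5b had -2.49 within number 1 and -2.37 within number 2 as deposited, or -2.34 and -1.69 relative to the medians, so the gap between the numbers was smaller before normalization. Ceacam10 probe set 1417074_at had -1.54 within number 2 as deposited. All 8 filtered probe sets kept the direction of their group difference in all 5 scalings.

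**Figure D3:**
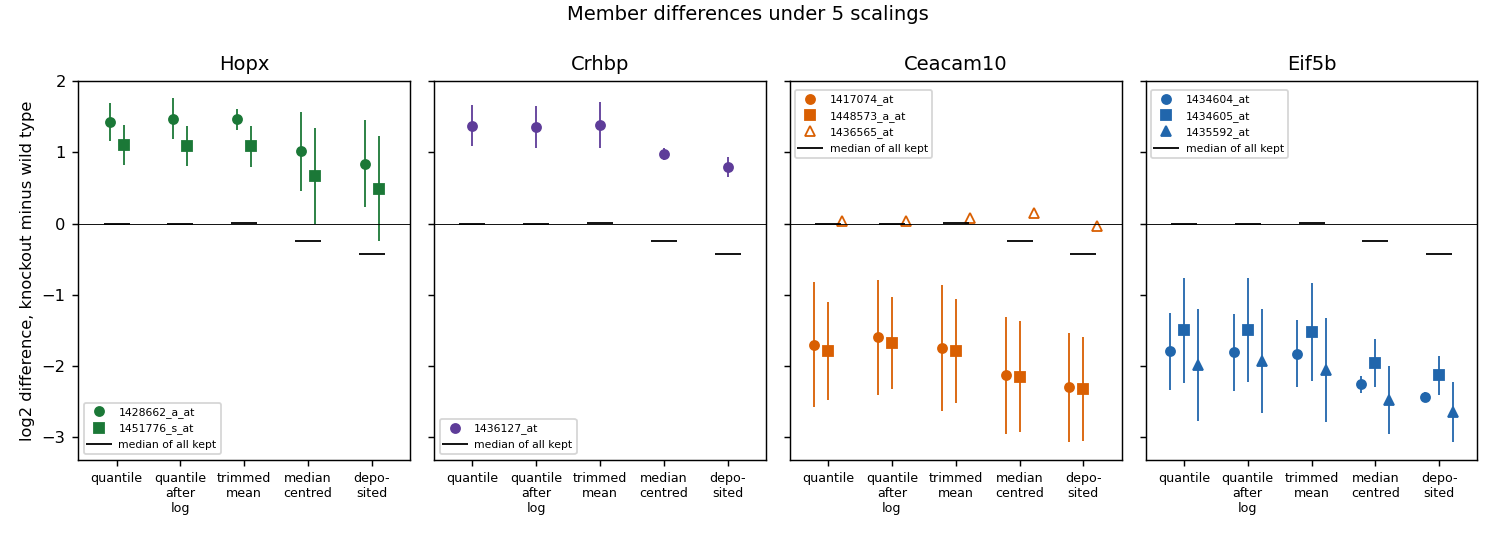
Log2 difference, knockout minus wild type, of each probe set under 5 scalings, with the vertical line running between the values within number 1 and number 2 and the black bar showing the median of all probe sets above the filter. Symbols of Hopx and Crhbp stay above 0 and the filled symbols of Ceacam10 and Eif5b at or below -1.50, while the median falls to -0.25 with median centring and -0.42 as deposited.

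Genes with a like pattern over the 4 arrays were ranked by the root mean square difference of centred log2 values, with each gene by its brightest probe set. The genes closest to Ceacam10 were Prdm16 (0.16), a zinc finger transcription factor, the uncharacterised E130119H09Rik (0.24) and Eif5b (0.28). E130119H09Rik itself lay below the filter on knockout array 1, at 6.52. Since Ceacam10 lay below the filter on knockout array 1, this order rests on the offset, and Eif5b, number 3 of 11595 genes with the offset of 16, was number 22 with an offset of 1 and number 70 with an offset of 64. Ceacam10 and Eif5b were also both chosen as lower in knockout. Hopx and Crhbp were 0.49 apart. Prdm16 measured 427 and 455 on the wild-type arrays and 76.0 and 256 on the knockout arrays, although its 4 filtered probe sets had differences from -1.53 to -0.27. The genes closest to Eif5b were Sh3bgr (0.16), itself below the filter on knockout array 1 at 1.41, Col3a1 (0.19), a fibrillar collagen, and Prdm16 (0.19). Closest to Hopx were Snhg12 (0.07), a noncoding host gene of small nucleolar RNAs, the DNA polymerase Polh (0.17) and Emilin2 (0.21), a matrix glycoprotein. Snhg12 measured 343 and 321 on the wild-type arrays and 1023 and 680 on the knockout arrays. Closest to Crhbp were Hfe (0.12), a regulator of iron uptake, the synaptic vesicle gene Syn2 (0.18) and Sco2 (0.21), a factor for cytochrome oxidase assembly. Hfe measured 96.1 and 92.4 on the wild-type arrays and 178 and 322 on the knockout arrays. With 4 arrays and 11595 genes, close patterns are to be found for any gene, and these are descriptions.

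The genes these 4 work with were taken from 4 lists of partners. In limma's test with Benjamini-Hochberg adjustment over all 11595 genes, 0 list genes passed the threshold of 0.05, and 0 had an unadjusted p under 0.05. Among all genes tested, 4 passed (0.0345%), of which 1 was higher (0.00862%) and 3 were lower (0.0259%). An unadjusted p under 0.05 was found for 272 genes (2.35%). Scaling by the trimmed mean gave 1 higher and 6 lower, and median centring 0 and 12. Blocking on array number gave 200 (1.72%), and 0 list genes passed under these 3 alternatives. Without knockout array 1 it was 262, without knockout array 2 it was 61 and without wild-type array 2 it was 7. Such a fit leaves 1 array in a group, which is assumed to vary like the pair in the other group, so these counts are no measure of stability.

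Of the 15 partners of Hopx, 11 passed the filter, with 1 higher and 5 lower within both numbers, as were 26.1% and 27.5% of all genes above the filter. The list had a median log2 difference of -0.18, against -0.01 for all genes. Srf, the factor that Hopx restrains, measured 61.6 and 63.6 on the wild-type arrays and 58.1 and 31.8 on the knockout arrays (log2 -0.40, limma adjusted p = 1). Its other filtered probe set went the other way, with 0.60. The histone deacetylase Hdac2 had -0.12 and Epc1, a partner in muscle differentiation, had -0.14. The lowest p belonged to the muscle transcription factor Mef2c (log2 -0.61, SE 0.35, adjusted p = 1) and to Smad1 (-0.48, SE 0.29, adjusted p = 1). Within number 1 Mef2c had -1.18, and within number 2 it had -0.05. The 3 filtered probe sets of Smad1 ran from -0.80 to 0.21. The heart factors Nkx2-5 and Gata4 lay below the filter, at no more than 15.8 and 9.29.

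The hormones and receptors that Crhbp works with were dim. Crh measured 0.14 and 6.78 on the wild-type arrays and 1.21 and 8.53 on the knockout arrays, and Ucn, Ucn2, Ucn3 and the receptor gene Crhr2 also lay below the filter. The receptor gene Crhr1 measured 12.7 and 12.5 on the wild-type arrays and 8.81 and 23.7 on the knockout arrays (log2 0.13, limma adjusted p = 1). Of the 14 genes, 6 passed the filter, with 1 higher and 2 lower within both numbers and a median of 0.08. The lowest p belonged to Pomc, the precursor of corticotropin (log2 0.55, SE 0.35, adjusted p = 1), and to the glucocorticoid receptor gene Nr3c1 (-0.33, SE 0.31, adjusted p = 1).

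Other genes of the Ceacam and pregnancy-specific glycoprotein family were mostly below the filter, which 5 of the 17 measured passed. Ceacam1, an adhesion molecule of epithelia, measured 36.4 and 49.8 on the wild-type arrays and 21.0 and 25.3 on the knockout arrays (log2 -0.59, SE 0.32, limma adjusted p = 1), but its other filtered probe set had 0.30. Psg21 had 0.29 (SE 0.30, adjusted p = 1), and Ceacam2 lay at 3.69 or below. The family's median was 0.27, with 2 genes higher and 2 lower within both numbers, and none of the 5 had a difference as low as Ceacam10.

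The other translation initiation factors had smaller differences than Eif5b, which was itself chosen for its difference. Of 46 genes, 40 were measured and 39 passed the filter. With each gene by its brightest probe set, 18 were higher and 8 lower within both numbers. The median log2 difference was 0.11 and the range ran from -0.54 to 0.32. Other filtered probe sets of these genes reached -0.67 in Eif4ebp2 and 0.67 in Eif2b2. Eif4a2, an RNA helicase of the cap complex, was lowest, at 1106 and 1026 on the wild-type arrays and 691 and 768 on the knockout arrays (log2 -0.54, SE 0.24, limma adjusted p = 1), and Eif3k had -0.21 (SE 0.24, adjusted p = 1). Eif5, which acts on the step before Eif5b, had 0.16, Eif1ax, which binds Eif5b on the ribosome, had -0.13, and Eif6, which keeps the large subunit apart, had -0.12. The 5 filtered probe sets of Eif5 ran from -0.54 to 0.30. All 3 Eif5b probe sets, from -1.99 to -1.50, lay below every filtered probe set of the 39.

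**Figure D4:**
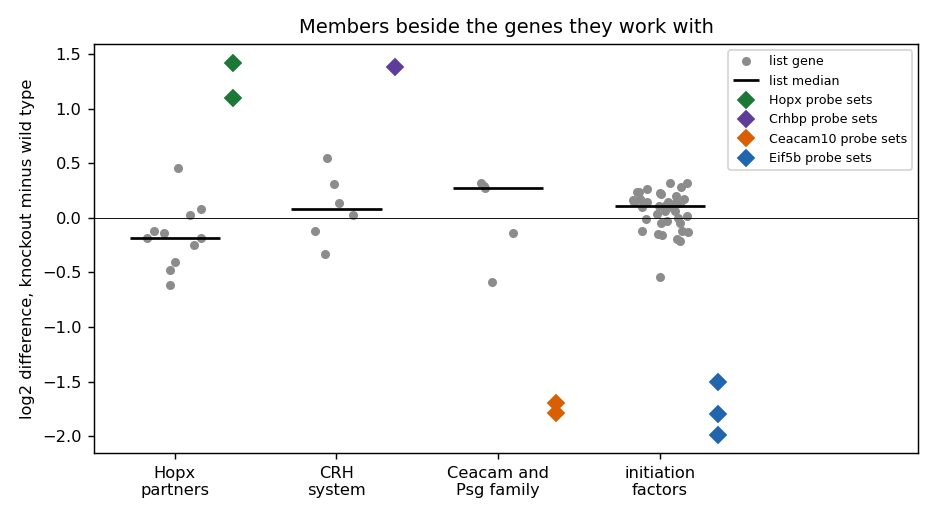
Log2 difference, knockout minus wild type, of the genes above the filter in each partner list (grey points, with the median as a bar) and of the filtered probe sets of the gene each list belongs to (diamonds). Each list gene is drawn by its brightest probe set, and the list genes lie between -0.61 and 0.55. Every diamond lies outside the range of its own list, but the genes drawn as diamonds were chosen for their difference. Other filtered probe sets of list genes, not drawn, reach -0.80 in Smad1 and 0.67 in Eif2b2.

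Neighbours on the chromosome had smaller differences. The 2 nearest measured protein-coding genes on each side of each gene were taken in the order of the GRCm38.p6 annotation. By their brightest probe sets they had log2 differences from -0.45 to 0.45. Beside Eif5b, Txndc9 measured 467 and 588 on the wild-type arrays and 477 and 603 on the knockout arrays (log2 0.03), Rev1 had -0.08 and Aff3 had -0.45. Beside Hopx, Srp72 had 0.03 and Rest had 0.45, with 0.06 within number 1 and 0.84 within number 2. Beside Crhbp, Aggf1 had 0.07 and F2r had -0.41, with -0.54 in its other filtered probe set. The 3 filtered probe sets of Zbed3, also beside Crhbp, ran from -0.70 to -0.003. Its brightest had -0.69 within number 1 and 0.68 within number 2. All 4 neighbours of Ceacam10 and Lyg1 beside Eif5b lay below the filter, and the other 11 had an adjusted p of 1 in limma.

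Markers of other cell types also differed between the groups. All 11 striated muscle markers lay lower on each knockout array than on the wild-type array of its number. Their median log2 difference was -2.24, and Acta1, Actc1 and Myl1, 3 in all, passed limma's test. Their summed intensity was 2904 and 1388 on wild-type arrays 1 and 2 and 152 and 148 on the knockout arrays. Of 9 fibroblast and pericyte markers, 8 were lower within both numbers (median -1.33, 0 passing), with sums of 2099 and 2554 in wild type and 1535 and 1228 in knockout. The exception, the pericyte gene Rgs5, had 0.02 in its brightest probe set and was the brightest of the list on wild-type array 1, at 824. Its 4 filtered probe sets ran from -0.04 to 1.50, and the 3 of Pdgfra from -0.45 to 0.41. Of the 9 markers, 6 were lower on knockout array 1 than on knockout array 2. Among them were Col3a1 at 114 and 233, Col1a2 at 49.7 and 138, Dcn at 14.6 and 44.8 and Postn at 29.5 and 60.5. In the same order these genes also rose from wild-type array 1 to wild-type array 2, from 476 to 710, 179 to 390, 60.0 to 138 and 106 to 220. Of the 6, Col1a1 fell between the wild-type arrays, from 116 to 92.1, and Pdgfra measured 206 and 214. On the wild-type arrays Eif5b measured 1129 and 1191 in probe set 1434604_at, 738 and 909 in 1434605_at, and 294 and 457 in 1435592_at. Of the 11 muscle markers, 5 were lower on knockout array 1 than on knockout array 2. The part of these cells in the lower values of Ceacam10 and Eif5b was not tested. Neural retina markers had sums of 2333, 2427 and 2363 on the wild-type arrays and knockout array 1, and 1157 on knockout array 2, with 0 higher and 4 of 9 lower within both numbers. For glia 1 was higher and 4 of 7 lower, with sums of 1340 and 1098 in wild type and 1073 and 825 in knockout.

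Lists that were higher with Hopx and Crhbp were the erythroid and pigment cell markers. Of 4 filtered erythroid markers, 3 were higher within both numbers (median 0.97), with sums of 91.7 and 158 in wild type and 135 and 514 in knockout. Of 6 filtered pigment cell and ciliary epithelium markers, 4 were higher within both numbers (median 0.30), with sums of 766 and 1224 in wild type and 1080 and 1363 in knockout. Their part in the higher values of Hopx and Crhbp was not tested. Surface epithelium, a tissue where Hopx is known, had 8 of 12 markers below the filter, among them the corneal keratin Krt12 at no more than 15.6, and sums of 277 and 153 in wild type and 205 and 140 in knockout. Vascular endothelium summed to 409 and 350 in wild type and 354 and 499 in knockout (median 0.19), and leukocytes to 355 and 384 in wild type and 366 and 442 in knockout (median -0.16). Lens fibre and lens epithelium markers had medians of -0.03 and 0.03, with 2 of 10 and 3 of 9 higher and 3 in each lower within both numbers. These medians cover single lens fibre genes with large differences. Bfsp1, a beaded filament protein, measured 5220 and 3785 on the wild-type arrays and 2186 and 2060 on the knockout arrays (log2 -1.06, limma adjusted p = 0.434), and Dnase2b, the nuclease that degrades fibre cell DNA, had -1.25 (adjusted p = 1). Bfsp2, the partner of Bfsp1, had -1.37 within number 1 and 3.36 within number 2. None of the markers outside the muscle list passed.

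**Figure D5:**
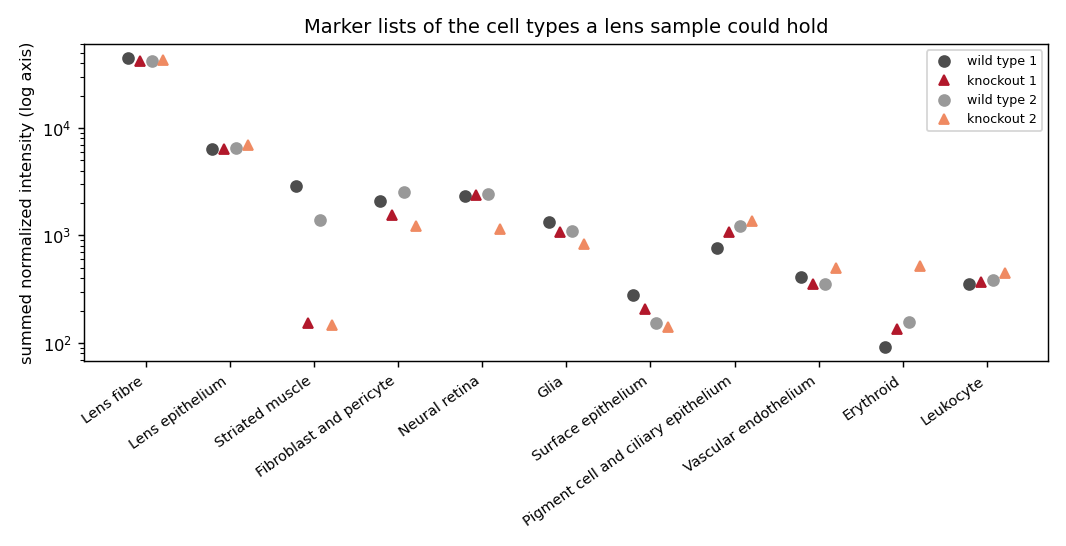
Summed normalized intensity (log axis) of each marker list on the 4 arrays, with circles for wild type and triangles for knockout. Striated muscle falls to 152 and 148 on the knockout arrays, and neural retina is low on knockout array 2 alone. The sums of lens fibre and lens epithelium markers stay close together, although single genes in them do not. The lens fibre sum rests largely on crystallins, whose values quantile normalization holds alike, so it does not compare lens content.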

How the data were processed

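The authors deposited 1 linear intensity per probe set and array for 45101 probe sets on 4 arrays. No source used here gives how probes were summarised or background was removed. The deposited intensities were not scaled between arrays. Quantile normalization (limma 3.58.1, R 4.3.3) came first, followed by log2 of the value plus 16. The 64 control probe sets were then left out. In the platform annotation 34945 probe sets had 1 gene symbol, 932 several and 9160 none, and only the first kind was named, with symbols brought up to date through RefSeq. Each gene was represented by its brightest probe set, and those with a mean log2 of at least the median, 4.86 (an intensity of 13.0), were kept. Groups were compared with limma's moderated test with a variance trend, with Benjamini-Hochberg adjustment over all kept genes. The procedure was checked on simulated data.

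The 4 genes, the 4 partner lists and the 12 marker lists were chosen with earlier results of these data known. Named were all probe sets of the 4 genes, the 3 genes with the closest pattern to each, the direct partners, and in each partner list the genes that passed, or otherwise the 2 with the lowest p. The neighbouring genes, the other genes whose probe sets agree and Ccn1 fall outside that rule, as do the markers named singly. The p-values reflect nothing beyond the spread of these 4 arrays, which may be technical, and the number of arrays limits the precision.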

Additional observations from a re-analysis of the deposited data

How the results depend on the processing

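No direction of the 4 genes turned under the 12 alternatives tried for each. With values as deposited, Hopx had a log2 difference of 0.84, Crhbp 0.80 and Eif5b -2.43, and with median centring Hopx had 1.02 and Crhbp 0.97, moves larger than the spread between replicates. Of the 28 values under other scalings, other offsets or the mean of probe sets, the other 23 moved by less than that spread. The block leaves the difference as it is, and leaving out 1 array cannot move it by more than that spread, so neither is counted. Leaving out 1 array gave 1.13 to 1.72 for Hopx, 0.99 to 1.77 for Crhbp, -2.67 to -0.73 for Ceacam10 and -2.38 to -1.22 for Eif5b. Of the 9 probe sets, 4 were higher within both numbers, counting the one below the filter, and 2 were with values as deposited. That count cannot be made with an array left out and does not depend on the block.

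The count of genes passing limma's test, 4, was 7 with trimmed-mean scaling and 12 with median centring. It was 0 with values as deposited (19 with an unadjusted p under 0.05), 0 with the probe sets of a gene averaged (271) and 0 without a filter (550). It ran from 4 to 262 with an array left out, where the lone array of a group is assumed to vary like the pair of the other. With the array number as a block it was 200. The labels give no meaning to the number. Deviations of same-numbered arrays from their group means had a correlation of 0.43 across genes, so same-numbered arrays tended to deviate alike. With only 2 pairs, the source of this cannot be told. The main test did not take the numbers as pairs, so this shared deviation stays in its error. Partner list genes passing stayed at 0 in all 15 alternatives, with 0 to 3 at an unadjusted p under 0.05. Values of dim probe sets, such as those of Ceacam10 on knockout array 1, rest on the offset, with a difference of -2.55 at an offset of 1 and -0.96 at 64. The agreement between probe sets and the rank of Eif5b beside Ceacam10 were computed at these offsets after the data were seen. The 2 Ceacam10 probe sets lay 1.09 apart at an offset of 1 and 0.05 at 64, and those of Eif5b 0.71 and 0.32.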
